A study of Homo sapiens with 2 samples.

Results

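The RAB genes encode small GTPases, and their transcripts were examined here for contacts with the RNA-binding protein RBMS3. A gene was counted as a member if GENCODE release 44 gives it as protein-coding and its symbol is RAB followed directly by a number and at most 1 letter, which left out regulators and effectors such as RAB11FIP1. This gave 63 of 20046 protein-coding genes. A site belonged to a member if it lay inside the annotated gene on the same strand, and this placed 142 of the 27706 listed sites in RAB genes.

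The data came from CLIP-seq, in which ultraviolet light crosslinks a protein to the RNA it touches before the protein is recovered and its RNA is sequenced. The cells were MDA-MB-231, an established human triple-negative breast cancer line, stably transduced with a lentiviral vector (pLX302EF1a) that expresses RBMS3 with an N-terminal 2xFLAG tag, so the bound protein was the tagged and not the endogenous one. There was 1 group with 2 biological replicates, and the source and cell line labels of replicate 2 name MDA-MB-232 whereas its title names MDA-MB-231. The authors pooled the replicates into a single list of deletion sites, so the values below carry no replicate error, and neither a control library nor the abundance of these RNAs was analyzed here.

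RAB proteins switch between a GDP-bound form in the cytosol and a GTP-bound form on a membrane, where they recruit the motors, tethers and sorting proteins that move vesicles. Exchange factors switch them on, GTPase-activating proteins switch them off, and prenylation by geranylgeranyl transferase, with the help of escort proteins, anchors them to the membrane. Different RABs mark different compartments, from RAB1A between the endoplasmic reticulum and the Golgi to RAB5A on early endosomes, RAB7A on late endosomes and RAB11A on recycling endosomes, and several of them are studied in breast cancer cells for their part in integrin traffic and secretion.

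The quantity listed for each site is the number of tags, which are unique sequenced RNA fragments, and the number of tags that lack 1 base at that position. The method reads such a deletion as the base where reverse transcriptase met the crosslinked protein, although deletions can have other origins. Percentages of tags with the deletion are given with 95% Wilson intervals, which cover counting error only. RNA was tailed with poly(A) after the immunoprecipitation and was then captured and primed with oligo(dT), and the natural tail of an mRNA can be captured likewise, which bears on each result about transcript ends. The part that RNA abundance and this capture step have in the values was not tested.

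The sequences below show what lay at the strongest contact of the RAB genes with the most clusters or the most deletions. Sites separated by 50 nt or less were grouped as 1 cluster, and the site with the most deletions represents it. Each line gives the 21 nt of the listed interval in the reference (hg38, 5′ to 3′ on the transcript strand, written as DNA), and the deleted base is the eleventh, in the center. Capitals mark a poly(A) signal, AATAAA or ATTAAA, and in RAB7A the 7-nt AUA motif of the study (A, G or T, then A or T, then ATA, then A or T, then A).
RAB5A, chr3:19985119-19985139, plus strand: cagtgtttagttttatattga
RAB5B, chr12:55994664-55994684, plus strand: taccgatgtatttaatgtaag
RAB5C, chr17:42124995-42125015, minus strand: tatcttgtcaatatagtcagc
RAB21, chr12:71786564-71786584, plus strand: ttttatctgcttttacaagcg
RAB22A, chr20:58360646-58360666, plus strand: aaattctaagtttcatttgac
RAB31, chr18:9862516-9862536, plus strand: cacactgattcatactaataa
RAB4A, chr1:229304388-229304408, plus strand: aaaaattgagtttttccgtga
RAB10, chr2:26137378-26137398, plus strand: tacttaacaatttaAATAAAc
RAB11A, chr15:65888062-65888082, plus strand: aaactgaatgtttggattcct
RAB11B, chr19:8404309-8404329, plus strand: ctttgtaagatttacgccaaa
RAB7A, chr3:128814077-128814097, plus strand: aatGTATAAAttagtgtaaga
RAB1A, chr2:65087895-65087915, minus strand: aagatatgtttAATAAAtatt
RAB18, chr10:27539792-27539812, plus strand: tttctagttcttgAATAAAta
RAB27B, chr18:54895494-54895514, plus strand: aaaaaatgaatttttatcaat

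In 12 of these 14 windows the deleted base was a T. It was an A in RAB5C and a C in RAB31. In RAB1A the deleted T is the last of a run of 3 that directly precedes AATAAA on the transcript. In a run of the same base the exact base that was skipped cannot be told apart, because a deletion of any of them leaves the same read.

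Several RAB genes had their deepest coverage at another base than their most frequent deletion, and 4 of those sites, chosen after their values were seen, are shown because they carry a poly(A) signal although the nearest annotated end is 687 to 13722 nt away. Capitals again mark the signal.
RAB7A, chr3:128814065-128814085, plus strand: gcaaccaATTAAAatgtataa
RAB11A, chr15:65889422-65889442, plus strand: ttcacattctAATAAAcagtt
RAB21, chr12:71786554-71786574, plus strand: atATTAAAtattttatctgct
RAB22A, chr20:58360633-58360653, plus strand: taaatacattAATAAAttcta

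RBMS3 sites were listed in 30 of the 63 RAB genes, beside 37.6% of all protein-coding genes. A site in the 3′UTR was present in 29 of them (46.0%), beside 32.5% of the protein-coding genes with an annotated 3′UTR. The bound genes with a 3′UTR site were RAB1A, RAB2A, RAB2B, RAB4A, RAB4B, RAB5A, RAB5B, RAB5C, RAB7A, RAB8A, RAB8B, RAB9A, RAB9B, RAB10, RAB11A, RAB11B, RAB12, RAB14, RAB18, RAB21, RAB22A, RAB27A, RAB27B, RAB28, RAB30, RAB31, RAB33B, RAB34 and RAB36. RAB40B had 1 site, in an intron, with the deletion in all 7 of its tags. The other 33 RAB genes had no listed site: RAB1B, RAB3A, RAB3B, RAB3C, RAB3D, RAB6A, RAB6B, RAB6C, RAB6D, RAB7B, RAB13, RAB15, RAB17, RAB19, RAB20, RAB23, RAB24, RAB25, RAB26, RAB29, RAB32, RAB33A, RAB35, RAB37, RAB38, RAB39A, RAB39B, RAB40A, RAB40C, RAB41, RAB42, RAB43 and RAB44. A gene without a site is one whose deletions did not pass the authors' call at this depth, and whether its RNA was present in the cells was not analyzed here. RAB6C arose as a copy of RAB6A, and RAB6D is closely related to it, so tags from these genes may not map to 1 place, and how such tags were treated is not given in the sources used here.

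Nearly all contacts were in 3′UTRs. The 3′UTR held 135 of the 142 RAB sites (95.1%, interval 90.2 to 97.6%), compared with 84.6% of 24913 sites in other protein-coding genes. Among sites with the deletion in under 30% of tags, it held all 119 in RAB genes and 18369 of 18813 in other genes. The remaining 7 sites were intronic, in RAB1A, RAB5B, RAB28, RAB8B and RAB40B, and each rested on 16 tags or fewer, with the deletion in 72.7% to 100% of them. No RAB site was listed in a 5′UTR or in coding sequence when the 3′UTR of any annotated transcript was given precedence, although 1 site of RAB2A lies in the 3′UTR of a shorter annotated transcript and in the coding sequence of the representative one, with 7 of 7 tags.

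The RAB sites separated into deeply covered positions with the deletion in a small share of tags and thinly covered positions with it in a large share. Of the 135 3′UTR sites, 119 had the deletion in under 30% of their tags, with 183 to 50378 tags and 32 to 1298 deletions each. The other 16, and all 7 intronic sites, had it in 30% or more, with 51 tags at most and a median of 12. Closest to this boundary were RAB27B at 25.2% (66 of 262 tags) below it and RAB4A at 39.0% (16 of 41 tags) above it. A 3′UTR site of the deep kind was present in 26 RAB genes, beside 28.2% of protein-coding genes with a 3′UTR. RAB9B, RAB30 and RAB36 had only thin sites in the 3′UTR, with 32 of 51, 19 of 44 and 9 of 9 tags.

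**Figure D1:**
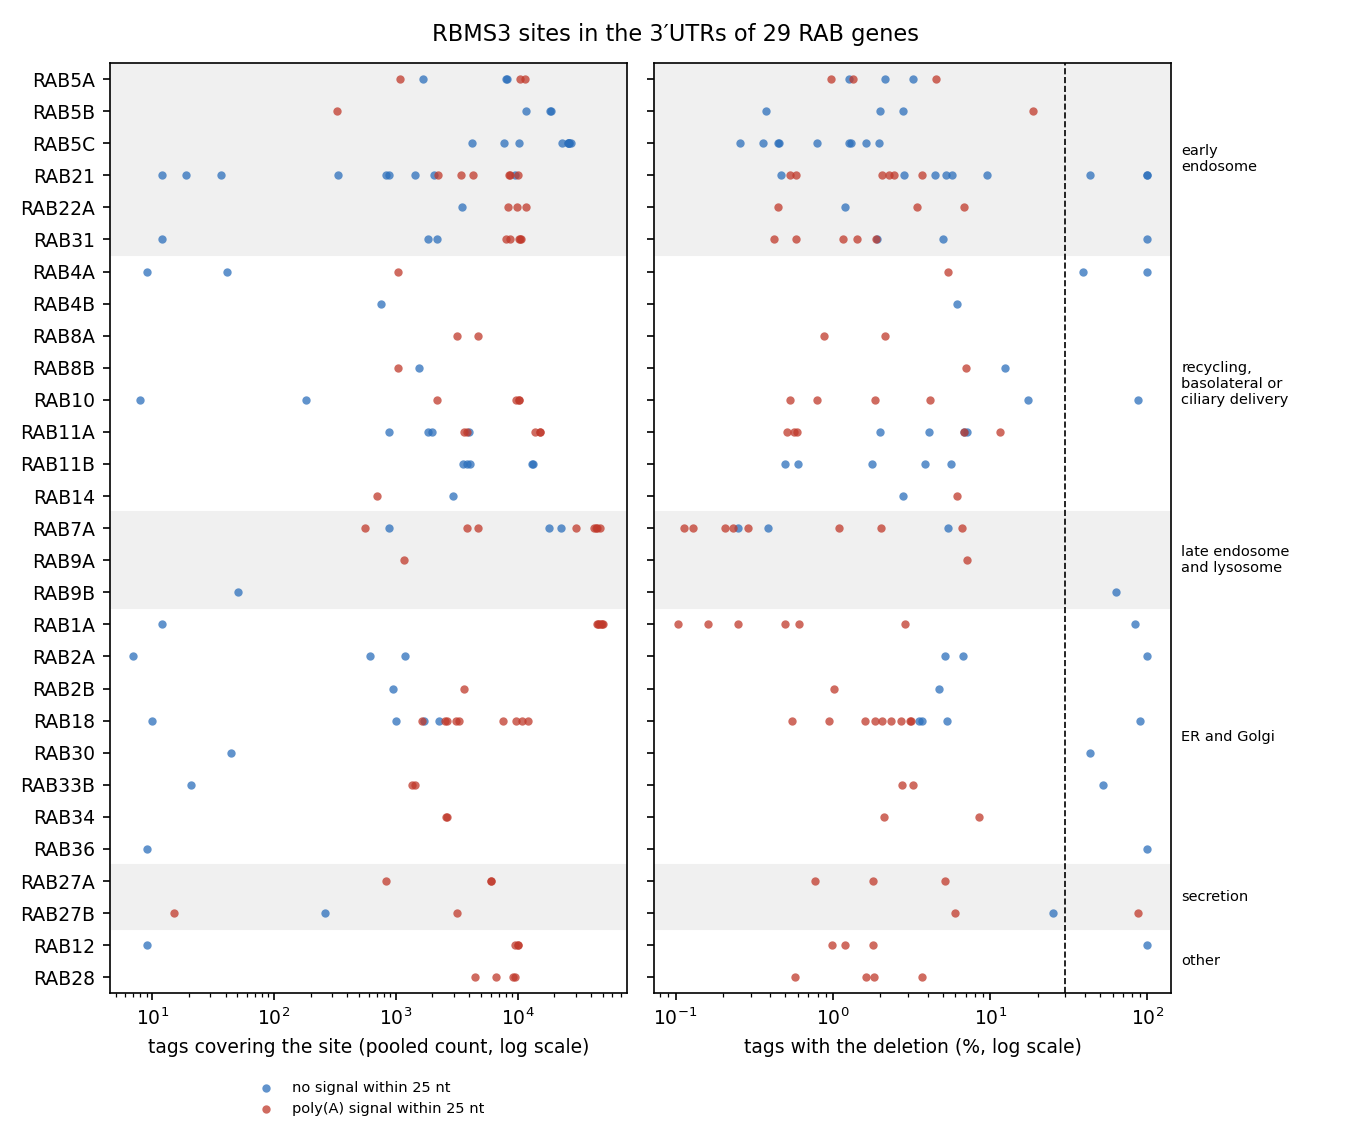
Each point is a site in the 3′UTR of a RAB gene, with genes grouped by the compartment they serve; the left panel gives the pooled tags that cover the site and the right panel the percentage of tags with the deletion, both on log scales. Red points have AATAAA or ATTAAA within 25 nt, and the dashed line at 30% separates 119 deeply covered sites from 16 thin ones, with RAB1A and RAB7A deepest and lowest in percentage.

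All 6 RABs of the early endosome list had 3′UTR sites, beside 32.5% of all protein-coding genes with a 3′UTR, with 46 sites in 20 clusters. The compartment lists were chosen with earlier results of these data known, so counts per list describe the lists and are no test. This list also had long 3′UTRs, with a median of 4426 nt against 2420 nt over all RABs, and the part of length in the count was not tested. RAB5A, RAB5B and RAB5C, which drive the fusion of early endosomes, were each covered deeply close to an annotated end. In RAB5C (chromosome 17, 42124978 to 42155044) all 9 sites formed a single cluster 9 to 72 nt from the end. The strongest of them had 538 deletions in 27471 tags, or 1.96% (1.80 to 2.13%), and its neighbor 340 in 26061, or 1.30% (1.17 to 1.45%). In RAB5B (chromosome 12, 55973913 to 55996683) the main cluster, with 526 of 18753 tags, lay 32 nt from the end of a shorter transcript and 2009 nt from the end of the representative one. A second RAB5B site, at that distal end, had 62 of 331 tags, so the coverage at the proximal end was far deeper. In RAB5A (chromosome 3, 19947097 to 19985175) 5 sites lay 13 to 90 nt from the end with 1669 to 11508 tags and deletions in 0.980% to 3.24% of them, and 1 site, with 49 of 1076 tags, lay 277 nt from it.

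RAB21, which carries integrins into endosomes, had the most dispersed contacts of the family. Its 3′UTR is 14613 nt long with 1 annotated end (chromosome 12, 71754863 to 71800286), and its 15 sites fell into 11 clusters between 3311 and 13743 nt from that end. Every deeply covered site of RAB21 was in the first 4310 nt of the 3′UTR, where 12 sites in 8 clusters had 333 to 10110 tags. The first cluster, 870 to 901 nt after the stop codon, held the deepest site, with 54 of 10110 tags, and the site with the most deletions, with 179 of 8656 (2.07%, 1.79 to 2.39%). The fifth, at 1740 nt, had nearly as many tags, 9575, with 45 deletions. The last 3 clusters, from 5929 nt onward, had only 12 of 12, 19 of 19 and 16 of 37 tags, and no site was listed near the annotated end. RAB21 supplied 11.1% of all RAB 3′UTR sites.

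RAB22A and RAB31, which sort cargo between endosomes and the trans-Golgi network, differed in where they were contacted. RAB22A (chromosome 20, 58309715 to 58367507) has a 3′UTR of 7804 nt, and its 4 sites formed 1 cluster 900 to 958 nt after the stop codon, 6846 to 6904 nt short of the only annotated end. The site with 676 of 9969 tags, 6.78% (6.30 to 7.29%), had the second highest number of deletions in the family, and the neighboring site had 287 of 8337, 3.44% (3.07 to 3.86%). In RAB31 (chromosome 18, 9708275 to 9862551) 6 of 8 sites lay 11 to 42 nt from the annotated end, with 1842 to 10718 tags. Its strongest had 162 of 8596 tags, whereas 1 site 3008 nt upstream of the end had 42 of 2195 and another had 12 of 12.

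Among the RABs of recycling and of delivery to the basolateral membrane or cilium, 8 of 13 had 3′UTR sites (61.5%, beside 32.5% of all genes), 30 in 17 clusters. RAB11A and RAB11B control the recycling endosome, and both were bound. In RAB11A (chromosome 15, 65726054 to 65891989) 1 cluster lay 216 to 232 nt after the stop codon, 175 to 191 nt upstream of the end of a shorter transcript. It held the site with 443 of 3814 tags, 11.6% (10.6 to 12.7%), and another with 249 of 3639, 6.84% (6.07 to 7.71%). The other cluster of RAB11A held 7 sites 1523 to 1601 nt after the stop codon, 2548 to 2626 nt from the end, and there the tags rose from 880 at its first site to 15404 at a base where AATAAA begins. The deletion was in 7.16% of tags at the former and 0.591% at the latter.

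RAB11B (chromosome 19, 8389981 to 8404434) had 2 sites 11 and 13 nt from its end, with 79 of 13120 and 67 of 13399 tags. A second cluster 115 to 133 nt from the end held 215 of 3816 tags, 5.63% (4.95 to 6.41%), 137 of 3555 and 72 of 4068. Neither cluster had AATAAA or ATTAAA within 25 nt of a listed site, and none of 10 variant hexamers was found around the deepest. RAB10, which serves basolateral delivery and the exocytosis of glucose transporter vesicles, had 3 sites 66 to 73 nt from its only end, with 424 of 10271 tags at the strongest, or 4.13% (3.76 to 4.53%). Its 3 other clusters were 1490 to 2244 nt upstream of the end, and the deepest of these had 41 of 2197 tags.

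RAB8A and RAB8B carry vesicles to the plasma membrane and the primary cilium. RAB8A had 2 sites 707 and 722 nt from its end, with 41 of 4700 and 68 of 3158 tags, and none at the end itself. RAB8B had 192 of 1544 tags, 12.4%, 54 nt from its end and 73 of 1043 at 1737 nt. RAB4A and RAB4B, of the fast recycling route, were covered less deeply. RAB4A had 56 of 1043 tags 1493 nt from an end beside 2 thin sites, and RAB4B had 1 site, with 47 of 762 tags, 9 nt from its end. That RAB4B position is also in an exon of the readthrough gene MIA-RAB4B, so the tags cannot be given to 1 of them. RAB14, which moves cargo between endosomes and the Golgi, had 82 of 2946 and 43 of 695 tags, 2018 and 1378 nt from an end. RAB13, RAB15, RAB17, RAB25 and RAB35 had no site.

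In the late endosome and lysosome list 3 of 8 RABs had 3′UTR sites (37.5%, beside 32.5% of all genes). They included RAB7A, which directs late endosomes to lysosomes and ranked 95 of 6371 genes with a 3′UTR site by the depth of its deepest site. In RAB7A (chromosome 3, 128693669 to 128825942) 8 of 11 sites formed 1 cluster 576 to 665 nt after the stop codon, with up to 47685 tags. Deletions there were rare, from 0.113% (51 of 45225 tags, 0.0858 to 0.148%) to 0.384% (70 of 18206) at the 7 deepest sites, and 5.38% (47 of 874) at the site that was covered least. By its highest number of deletions at a site, 121, RAB7A ranked only 2252. It had 2 further sites 3 and 15 nt from an annotated end, with 42 of 3846 and 95 of 4689 tags, so its coverage was far deeper inside the 3′UTR than at the end. RAB9A, which returns cargo from late endosomes to the Golgi, had 1 site, with 83 of 1164 tags, 869 nt from its end, and its paralog RAB9B had the thin site given above.

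The list of the endoplasmic reticulum and Golgi held 18 RABs, of which 8 had 3′UTR sites (44.4%, beside 32.5% of all genes), 32 in 15 clusters. RAB1A, which is required for transport from the endoplasmic reticulum to the Golgi, had the deepest coverage and the most deletions of all RABs. Its main cluster held 6 sites on 44885 to 50378 tags within 20 nt (chromosome 2, 65087886 to 65087905). The site with 1298 of 45364 tags, 2.86% (2.71 to 3.02%), ranked 66 of 6371 genes by deletions, and the other 5 sites of the cluster had 0.103% to 0.612% on the same stretch. This cluster lay 15 to 34 nt from the end of a shorter RAB1A transcript and over 1000 nt from the end of the representative one, where no deep site was listed. The only other 3′UTR site of RAB1A had 10 of 12 tags.

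RAB18, which acts at lipid droplets and the endoplasmic reticulum, had 13 sites in 5 clusters and the most annotated ends of the bound RABs, 17. Its clusters followed several of these ends. The first, 450 to 454 nt after the stop codon, lay 7 to 11 nt from an end with 47 of 2540 tags at its strongest site. The second, at 1091 to 1099 nt, lay 23 to 31 nt from another with 90 of 3300. The fifth, at 1685 to 1770 nt, held 7 sites 6 to 78 nt from ends and was the deepest, with 256 of 10887 tags, 2.35% (2.08 to 2.65%), at its strongest site and 12264 tags at its deepest. No site was listed at the end of the representative transcript, 4188 nt after the stop codon. The fourth cluster, a site with 50 of 1626 tags, lay 201 nt from an end, and the third was thin, with 9 of 10 tags.

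The remaining bound RABs of this list were covered less. RAB2A and RAB2B, which act in early secretory traffic, had up to 1189 and 3626 tags at a site. The deepest RAB2B site lay 35 nt from its end, whereas that of RAB2A lay 1716 nt from its own. RAB33B, a Golgi RAB that also binds the autophagy factor ATG16L1, had 47 of 1445 and 37 of 1351 tags 719 and 707 nt from an end, beside 1 thin site. RAB34, which is needed to build cilia, had 219 of 2582 tags, 8.48% (7.47 to 9.62%), only 3 nt from an annotated end and 55 of 2618 at 7 nt.

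Of 8 RABs of regulated secretion 2 had 3′UTR sites (25%, beside 32.5% of all genes), namely RAB27A and RAB27B, which dock secretory granules and lysosome-related organelles. RAB27A had 109 of 6060 and 47 of 6063 tags 24 and 25 nt from its end and 43 of 829 at 317 nt. RAB27B had 193 of 3209 tags, 6.01% (5.24 to 6.89%), 12 nt from its end, with 66 of 262 and 13 of 15 tags further upstream. The 4 RAB3 genes, RAB26 and RAB37, which also serve secretion, had none. In the list of cilium and less studied RABs, 2 of 9 had 3′UTR sites (22.2%, beside 32.5% of all genes). RAB12 had 172 of 9606 tags 11 nt from its end, and RAB28 had 4 sites 9 to 26 nt from its ends on up to 9457 tags. The list fixed no compartment for RAB6D.

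**Figure D2:**
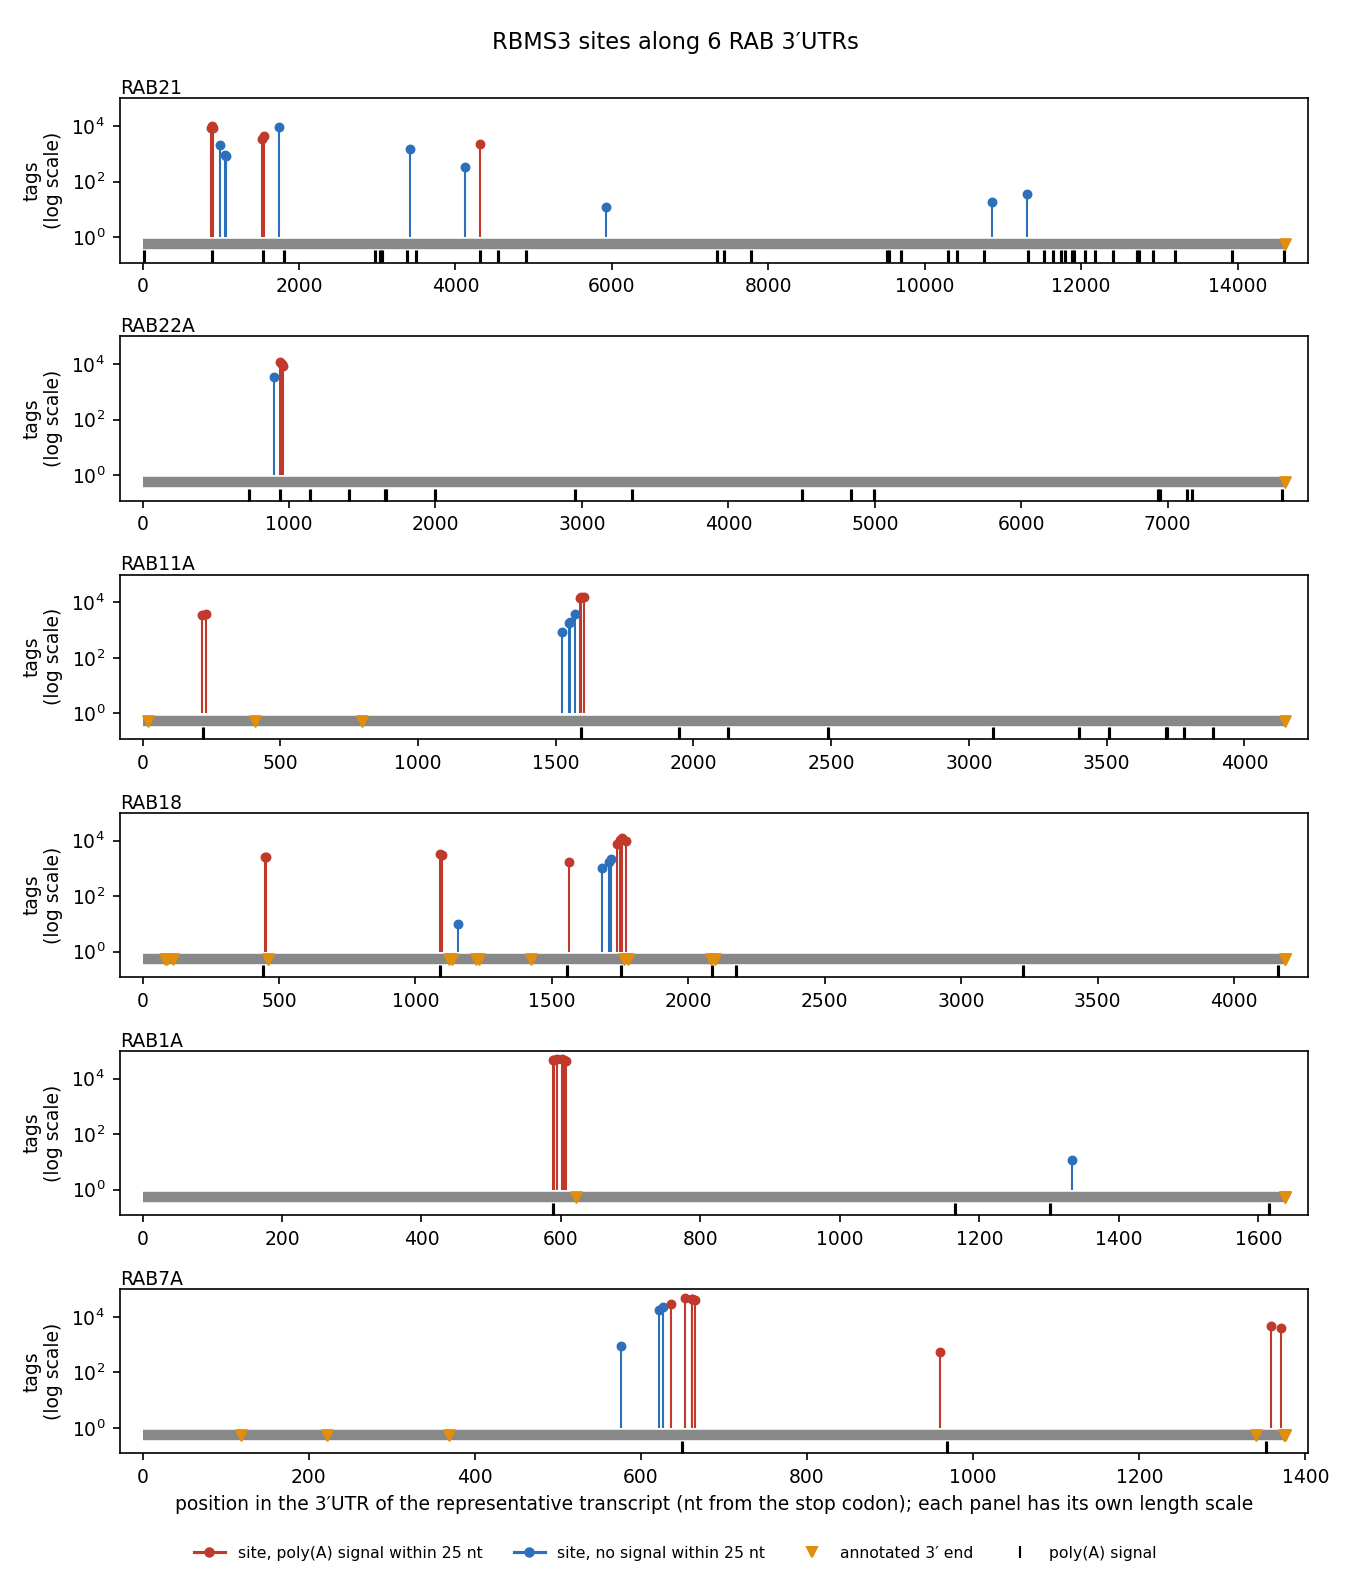
RBMS3 sites along the 3′UTRs of RAB21, RAB22A, RAB11A, RAB18, RAB1A and RAB7A; the horizontal axis is the position in nt after the stop codon of the representative transcript, with its own scale in each panel, and the height is the number of pooled tags on a log scale. Orange triangles are annotated 3′ ends and black ticks are AATAAA or ATTAAA, and the deep sites of RAB21 and RAB22A stand far before the only annotated end whereas those of RAB1A and RAB18 stand beside the ends of shorter transcripts.

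Of the 63 genes, 34 belonged to 14 sets of paralogs that share a number and differ in the letter, and 18 of these 34 had 3′UTR sites, beside 32.5% of all protein-coding genes with a 3′UTR. Whether paralogs were listed together more than other genes was not tested. All members had a 3′UTR site in 7 sets, which were RAB2, RAB4, RAB5, RAB8, RAB9, RAB11 and RAB27. Only 1 member had one in 3 sets, namely RAB1A and not RAB1B, RAB7A and not RAB7B, and RAB33B and not RAB33A. The RAB3, RAB6, RAB39 and RAB40 sets had no 3′UTR site. Among the 29 RABs without such a paralog, 11 had 3′UTR sites.

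Levels differed within the bound sets. The 3 RAB5 genes had 11508, 18753 and 27471 tags at their deepest site, and RAB11A and RAB11B had 15404 and 13399. RAB9A and RAB9B had 1164 and 51, the largest ratio within a bound set. These are tags of different RNAs, whose abundance is not known here, so a difference between paralogs in binding and one in RNA level cannot be told apart.

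**Figure D3:**
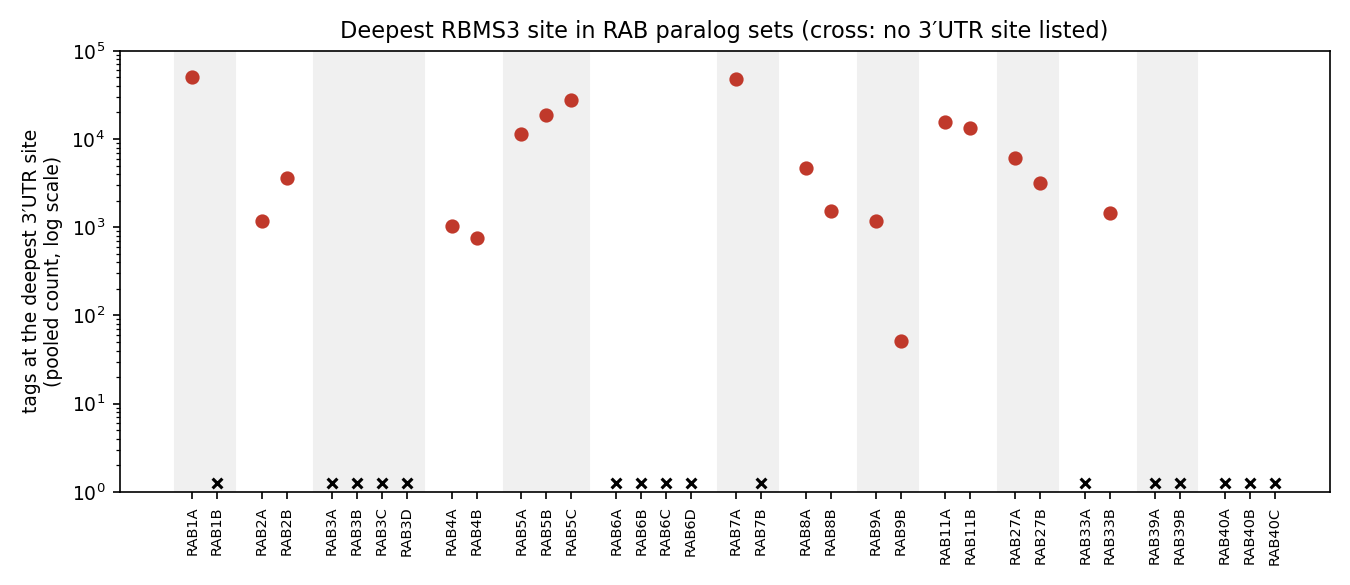
Pooled tags at the deepest 3′UTR site of each RAB gene that has a paralog of the same number, on a log scale, with sets shaded in turn. Crosses mark genes without a listed 3′UTR site, and the plot shows 7 sets with points for every member, 3 with a point for 1 member and 4 with crosses only.

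The RAB sites were compared with the sites of other genes for their distance to an annotated 3′ end. Within 100 nt of an end lay 68 of the 135 RAB 3′UTR sites (50.4%, 42.0 to 58.7%), compared with 65.9% (65.3 to 66.6%) of 21088 sites of other genes. More than 1000 nt from any end lay 41 RAB sites (30.4%, 23.2 to 38.6%), compared with 16.2% of the others. The median distance was 90 nt in RAB genes (quartiles 25 and 1730.5 nt) and 38 nt in other genes. With 1 representative transcript per gene in place of all annotated ends, the RAB share within 100 nt was 34.3% and the median distance 921.5 nt. Without RAB21, an alternative chosen after seeing the data, the RAB share within 100 nt was 56.7% and the median 60.5 nt. Sites of a gene share tags and are not independent, so these intervals are too narrow for a comparison between gene families, and no test was made.

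Counted by gene, the direction depended on which genes were taken as the base. A 3′UTR site within 100 nt of an end was present in 20 of the 63 RAB genes. This was a larger share than the 25.5% of all protein-coding genes with a 3′UTR. Among the genes with any 3′UTR site, the share was lower in RABs, at 69.0% (50.8 to 82.7%) against 78.5% of the others, a smaller difference than by site. At least 2 clusters were present in 18 RAB genes, beside 11.7% of all protein-coding genes with a 3′UTR, and among bound genes these were 62.1% (44 to 77.3%) of the RABs and 35.9% of the others. These counts include thin clusters. In RAB1A, RAB2A, RAB4A, RAB12 and RAB33B all clusters but 1 were thin. The 3′UTRs of bound RABs had a median length of 2852 nt (865 to 14613), and those without a 3′UTR site 1841 nt (130 to 11971). Bound and unbound genes outside the family had medians of 2674 and 1432.5 nt. The ranges overlapped broadly, and RAB3B and RAB3C, with 3′UTRs of 11971 and 8043 nt, had no site.

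**Figure D4:**
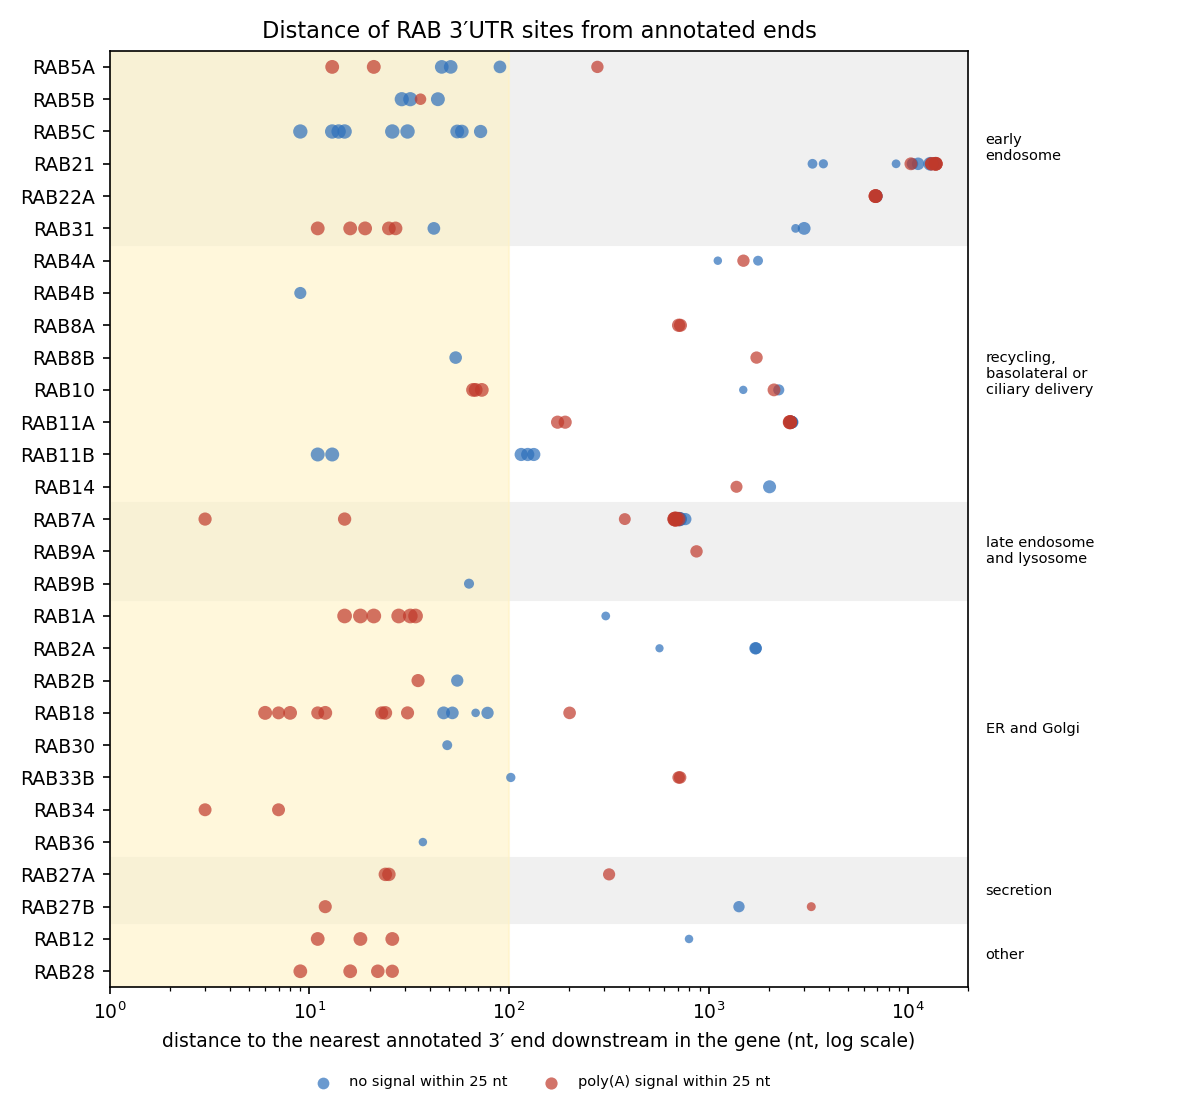
Distance in nt (log scale) from each RAB 3′UTR site to the closest downstream 3′ end annotated for its gene, with larger points for more tags and red points for sites with AATAAA or ATTAAA within 25 nt. The shaded band marks distances up to 100 nt, which hold 68 of the 135 sites, and RAB21, RAB22A, RAB11A and RAB7A have deep sites outside it.

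The deepest site of each gene was then set against the ends and the poly(A) signals, the hexamers that direct cleavage and polyadenylation a short way downstream. It lay within 100 nt of an annotated end in 19 of 29 RABs (65.5%, 47.3 to 80.1%) and in 72.2% of other genes. In RAB1A, RAB5B, RAB18 and RAB30 that end belonged to a shorter transcript and not to the representative one. The 19 RABs near an end include RAB9B, RAB30 and RAB36, whose 3′UTR sites were thin only. AATAAA or ATTAAA lay within 25 nt of the deepest site in 19 RABs, 14 with AATAAA and 5 with ATTAAA, compared with 76.3% of other genes. The 2 groups of 19 overlapped in 11 genes, which were RAB1A, RAB2B, RAB5A, RAB10, RAB12, RAB18, RAB27A, RAB27B, RAB28, RAB31 and RAB34.

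In the 10 other RABs the deepest site lay more than 100 nt from every annotated end of the gene, and in 8 of them a signal was nonetheless present. These were RAB4A, RAB7A, RAB8A, RAB9A, RAB11A, RAB21, RAB22A and RAB33B, with distances of 687 to 13722 nt, and RAB7A, RAB11A, RAB21 and RAB22A are those whose sequences were shown. Across other genes with a deepest site this far from an end, 59.5% of 1765 had a signal, and the RAB share of 80.0% had an interval of 49.0 to 94.3%. RAB2A and RAB14 had neither an end nor a signal. Both had a stretch downstream of the site, within 50 nt, in which at least 8 of 10 bases were A, as did RAB9A. The other 7 genes had at most 7. Near an end, the deepest sites of RAB5B, RAB8B and RAB10 had such a stretch as well. Over all clusters it was present in 21.5% in RAB genes (13.3 to 33.0%) and 21.3% in other genes. The part of such stretches, at which oligo(dT) can prime, was not tested.

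Near an end but without AATAAA or ATTAAA were RAB4B, RAB5B, RAB5C, RAB8B, RAB9B, RAB11B, RAB30 and RAB36. The sites of RAB9B, RAB30 and RAB36 were thin, with 51, 44 and 9 tags. Of the 8 genes, 3 had a variant hexamer within 25 nt, namely AATATA in RAB5C, AGTAAA in RAB5B and CATAAA in RAB4B. The AATATA of RAB5C is visible in its sequence above and overlaps the deleted base. In other genes whose deepest site lacked the main signals, 50.4% had a variant, compared with 3 of 10 RABs. The 10 RABs include RAB9B, RAB30 and RAB36 with their thin sites.

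Over all 65 RAB clusters, 31 had AATAAA or ATTAAA within 25 nt of the representing site (47.7%, 36 to 59.6%), compared with 60.7% (59.7 to 61.6%) of 9916 clusters of other genes, and 23 had AATAAA (35.4%). By distance to an end, it was 13 of 24 RAB clusters within 100 nt of an end (54.2%, 35.1 to 72.1%), where other genes had 76.7%, and 18 of 41 further away (43.9%, 29.9 to 59.0%), where they had 40.6%. Among the distant clusters with deletions in under 30% of tags it was 17 of 29 (58.6%) and 64.1%. The near RAB clusters without a signal include thin ones, in RAB9B, RAB18, RAB30 and RAB36. In RAB2B and RAB5A another site of the near cluster had a signal within 25 nt. The near share without thin clusters was not computed. The intervals of the near and distant RAB clusters overlapped broadly. When a RAB cluster had a signal, the deleted base lay upstream of it in 15 clusters, inside it in 2 and downstream in 14.

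The AUA motif of the study was present within 25 nt in 24 of the 65 RAB clusters (36.9%, 26.2 to 49.1%) and in 47.9% of the clusters of other genes. It can contain AATAAA, since the letters of both overlap. When matches that contain AATAAA were not counted, 5 RAB clusters (7.69%, 3.33 to 16.8%) and 14.6% of other clusters had the motif. One of the remaining matches is the GTATAAA of RAB7A shown above.

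Most poly(A) signals in bound RAB 3′UTRs had no site beside them. In the representative 3′UTRs of the 29 genes, 26 of 132 AATAAA (19.7%) and 9 of 93 ATTAAA (9.68%) had a deletion within 25 nt, compared with 28.8% and 15.1% in 6148 other genes. The share of signals with a site beside them differed widely between members. All 3 signals of RAB7A and 4 of 8 of RAB18 had a site. In RAB21 3 of 37 did, in RAB22A 1 of 17, and none of 27 in RAB30, whose only site was thin. Whether a signal was used for cleavage was not analyzed here.

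The deleted base was T at 89 of the 135 RAB 3′UTR sites (65.9%, 57.6 to 73.4%), A at 30, G at 10 and C at 6, and T was deleted at 65.5% of the sites of other genes. Where the deleted base differed from both neighbors, so that its position is exact and runs of T are left out, T made up 12.5% of the RAB sites. Few 3′UTR sites were of this kind. Among them T was deleted only in RAB27A (109 of 6060 tags) and RAB7A (51 of 45225). Runs of 3 or more T held 66 of the RAB sites (48.9%, 40.6 to 57.2%), and 45.6% of the others. RAB sites of the deep kind had a median of 6060 tags and 73 deletions in the 3′UTR, where other genes had 6324 and 72. The share of deleted T and these medians were thus close in both sets, and their difference was not tested.

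**Figure D5:**
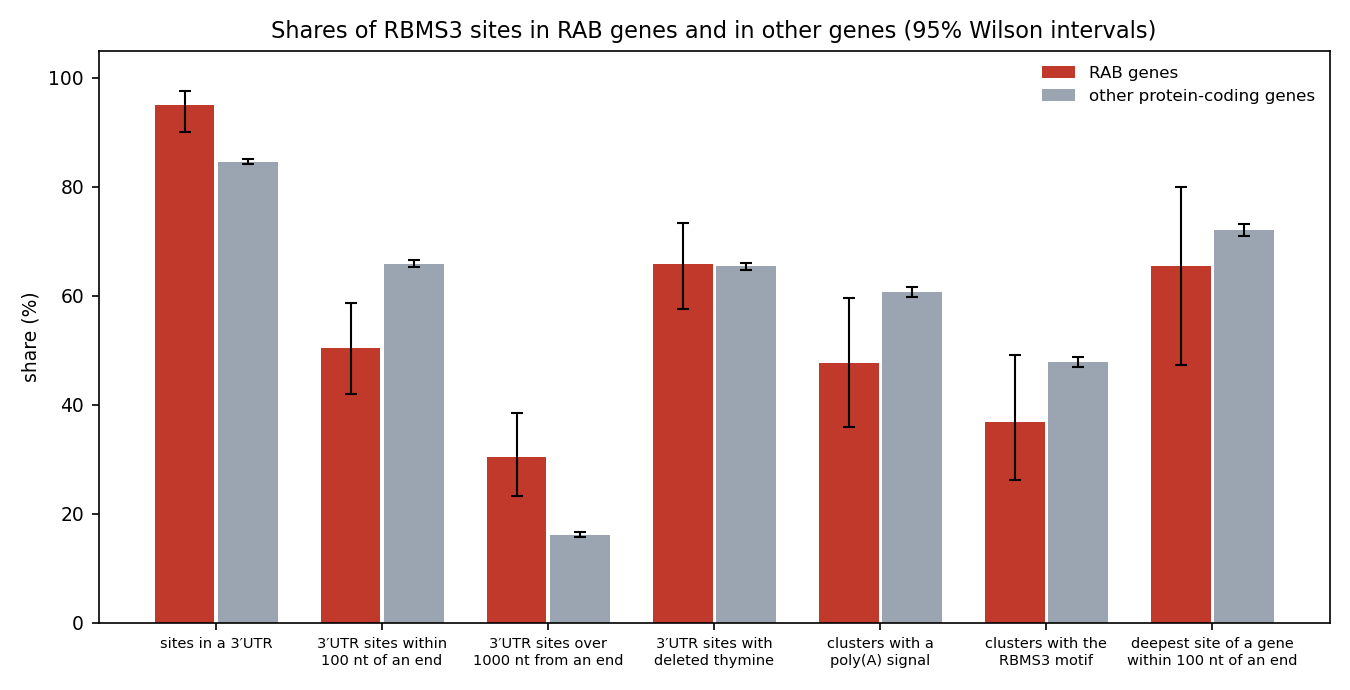
Shares in percent of RAB sites, clusters or genes (red) and of those of other protein-coding genes (gray), with 95% Wilson intervals that treat sites as independent; the RBMS3 motif on the axis is the AUA motif. RAB sites are within 100 nt of an end in 50.4% against 65.9%, and the share with deleted thymine is 65.9% against 65.5%.

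Genes that act on RABs were contacted as well. Of 8 genes for prenylation and GDP dissociation, 4 had 3′UTR sites: CHM and CHML, which escort new RABs to prenylation, RABGGTB, a subunit of the transferase, and GDI2, which extracts RABs from membranes. RABGGTB had 173 of 6745 tags at its strongest site, and GDI2 had only 13 of 14. Exchange factors had sites in 12 of 32 genes, with 149 of 7616 tags at the strongest site of RIN2, which activates RAB5. GTPase-activating proteins had them in 16 of 35, with 235 of 6324 tags at the strongest site, in TBC1D2, and 178 of 20940 in TBC1D9B. Effectors had them in 23 of 47, with 218 of 11972 tags in BICD2, which links RAB6 vesicles to dynein. These counts stand beside the 32.5% of all protein-coding genes with a 3′UTR, and no difference between the lists was tested. They include genes with thin sites only. A 3′UTR site with the deletion in under 30% of tags was present in 3 prenylation and GDP dissociation genes and 7 exchange factors. It was present in 13 GTPase-activating proteins and 17 effectors, beside 28.2% of all protein-coding genes with a 3′UTR.

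The related ARF and ARL genes, small GTPases that recruit coats and tethers to membranes, were counted in the same way. They had 3′UTR sites in 15 of 26 (57.7%), beside 29 of 63 RABs (46.0%). Among all protein-coding genes with a 3′UTR the share was 32.5%, and no difference was tested. Of their 3′UTR sites, 55.8% lay within 100 nt of an end, and 50.4% of the RAB sites did.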

How the data were processed

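RBMS3 CLIP-seq libraries were made from 2 biological replicates. The authors appended molecular identifiers to the reads, and used the CLIP Tool Kit to align them to hg38, to reduce them to unique tags, to pool both replicates and to call crosslinking-induced mutation sites from deletions, at a false discovery rate under 10% and a fold over 10, whose definition is not given in the sources used here. Each deposited row holds 2 counts, that of pooled tags with the deletion and that of tags over the site, without normalization. No counts per replicate were analyzed here, so the depth is known per site only, with 7 to 125056 tags. Every interval had 21 nt and its center was taken as the deletion, which was checked at the mitochondrial position 3107, an N in the reference.

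Sites were placed on all transcripts of GENCODE release 44, in the order 3′UTR, 5′UTR, coding sequence, other exon and intron. Distances run to the closest downstream 3′ end annotated for the gene. The placement was tested on simulated data. Every RAB gene was named. Values per site were given for the 12 RAB genes with most clusters, for the 10 RAB sites with most deletions and by paralog set. The members, the lists of compartments and regulators and the alternatives were chosen with earlier results of these data known. The 10 variant hexamers were TATAAA, then AGTAAA, then CATAAA, then GATAAA, then AATATA, then AATACA, then AATAGA, then ACTAAA, then AAGAAA and then AATGAA. The tools were pysam 0.24.0, pandas 2.3.3, numpy 2.4.6, matplotlib 3.10.9 and scipy 1.17.1 under Python 3.11.15.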

Additional observations from a re-analysis of the deposited data

How the results depend on the processing

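Of 84 recomputed values, 55 stayed within 1.5 times the count or within the 95% interval of the value in the report. Requiring deletions in at least 10% of tags, which keeps the thin sites and drops most deep ones, left 18 RAB genes with a site, 16 with a 3′UTR site and 21 clusters. There 75% of RAB sites were in the 3′UTR, 28.6% of 3′UTR sites were within 100 nt of an end, the median distance was 797 nt, 14.3% of clusters had a poly(A) signal and 19.0% the AUA motif, T was deleted at 57.1% and the median deletion percentage was 88.8%. With at least 20 deletions 100% of sites were in the 3′UTR and 60% of clusters had a signal. With at least 50, these were 100% and 65.7%, with 35 clusters, 59.3% of sites within 100 nt and a median of 1.88% of tags deleted. With deletions in under 30% of tags they were 100% and 61.2%. With 1 representative transcript per gene, 34.3% of sites were within 100 nt of an end and the median distance was 921.5 nt. Windows of 10 nt gave 15.4% of clusters with a signal and 12.3% with the AUA motif, and windows of 50 nt gave 67.7% and 58.5%. AATAAA alone gave 35.4%, and the AUA motif without matches that contain AATAAA gave 7.69%. Counting the 10 variant hexamers as well, an alternative chosen after seeing the data, gave 63.1%. Among deleted bases that differ from both neighbors, where the position is exact, T made up 12.5%, a share that rests on few sites. Leaving out RAB21, also chosen after seeing the data, moved no recomputed value beyond these limits. Adding 1000 nt downstream of each gene, likewise chosen, was run for the genes with a site, the genes with a 3′UTR site and the 3′UTR share, and kept all 3 within them. No paired analysis was possible because the list pools both replicates of the only group. Depth limits what could be called, since no RAB 3′UTR site with deletions in under 30% of tags was listed with fewer than 183 tags, and the abundance of each RNA was not analyzed here.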

Other observations

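On the strand opposite to the gene, 6 RAB genes held 1 listed site each. These were RAB1A (46 of 230 tags, in its 3′UTR and in an exon of CEP68), RAB21 (8 of 12, in its 3′UTR), RAB11A (9 of 9, in an intron and in an exon of DENND4A), RAB7A (34 of 50), RAB6A (11 of 11) and RAB23 (28 of 28), the last 3 in introns. RAB6A and RAB23 had no site on their own strand.

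Within 1000 nt downstream of an annotated RAB gene on its own strand, 1 site was listed, 614 nt past the end of RAB2A, with the deletion in all 8 of its tags.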
